A study of Mus musculus with 8 samples.

Results

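The genes described here are 28 enzymes and regulators of cholesterol and fatty acid synthesis, chosen by name and matched by symbol among the 47643 genes of the deposited tables. All 28 were found, and all 28 were among the 13829 genes with enough reads to be tested. RNA of whole kidney was sequenced from 4 WT (wild-type) mice and 4 mice of the genotype Six2-Cre;Cox10-fl/fl, a conditional knockout (cKO). Replicates 1, 3 and 4 of each group were 3 months old and replicate 2 of each group was 2.5 months old. Cox10 encodes an enzyme of heme A synthesis, which mitochondrial cytochrome c oxidase requires. The Cre is driven from Six2, a gene of nephron progenitors, so recombination is directed to the epithelium that descends from them and not to stroma, vessels or blood cells. The labels name the Cre only for the cKO, do not say which exon is floxed and do not say whether the mice were littermates. They do not state that every library came from a separate animal, so p-values measure the spread between these samples.

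Each library held 9454830 to 15838026 counts, and the members held between 41 counts (Acacb in cKO 2) and 11227 counts (Scd1 in WT 1). The targeted gene itself was measured at 21.0 ± 2.47 CPM (counts relative to the scaled library total; SD, n = 4) in WT and 18.4 ± 5.12 CPM in cKO, an estimated log2 fold change of -0.19 (edgeR adjusted p = 0.619). A count over all exons of Cox10 in whole kidney does not test whether the floxed part was lost. The labels give no sex. Reads of 4 Y-linked genes numbered 829 to 1707 in 3 WT libraries (WT 2, WT 3, WT 4) and 848 in 1 cKO library (cKO 3), and 0 in the rest. By these reads WT 1 was the sole female WT mouse and cKO 3 the sole male cKO mouse, so genotype values are also given within each sex.

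Cholesterol is built from acetyl-CoA through mevalonate to the linear hydrocarbon squalene, which is then closed into a ring and trimmed to cholesterol. The transcription factors SREBP-1 and SREBP-2 are held in the endoplasmic reticulum by the escort protein SCAP and the INSIG proteins while sterols are plentiful. When sterols fall they move to the Golgi, are cleaved and switch on most of the genes described here. Kidney tubule cells can make sterols and fatty acids themselves and also take them up from the blood and the filtrate.

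Of the 28 members, 2 rose and 3 fell in cKO kidneys. Fdps and Fdft1, which make farnesyl diphosphate and squalene, rose 2.32-fold and 1.67-fold. Cyp51, the lanosterol demethylase, fell to 0.368 of the WT level, Acss2, which makes acetyl-CoA from acetate, to 0.329, and Acacb, the mitochondrial acetyl-CoA carboxylase, to 0.471. The remaining 23 members did not pass the test (edgeR quasi-likelihood test, Benjamini-Hochberg adjusted across the tested genes, threshold 0.05). The 5 members called were 17.9% of the list, where 16.7% of all tested genes were called, so the share called was near the background. By direction, 9.57% of all tested genes rose and 7.14% fell. The groups did not overlap for 6 members, the 5 called and Scap, against 22.6% of all tested genes. In 2 of the 6 the cKO libraries lay above (13.1% of all tested genes) and in 4 below (9.56%). The median log2 fold change of the members was 0.05, with 15 positive and 13 negative, beside -0.01 over all tested genes, with 6790 positive and 7039 negative. Leaving out 1 library moved these counts. Without WT 1 there were 5 higher and 4 lower, where 22% of all tested genes were called. Without WT 2, WT 3, WT 4, cKO 1, cKO 2 or cKO 3 there was 1 higher, and without WT 4 there was 1 lower. In these 6 leave-outs 9.17% to 15.7% of all tested genes were called. Without the 2.5-month pair Fdps alone kept its call, and without WT 4 and cKO 4 together none of the 5 did (edgeR adjusted p from 0.0635 to 0.193, with 7 members at an unadjusted p under 0.05). Of all tested genes, 10% were called without the 2.5-month pair and 4.1% without WT 4 and cKO 4.

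**Figure D1:**
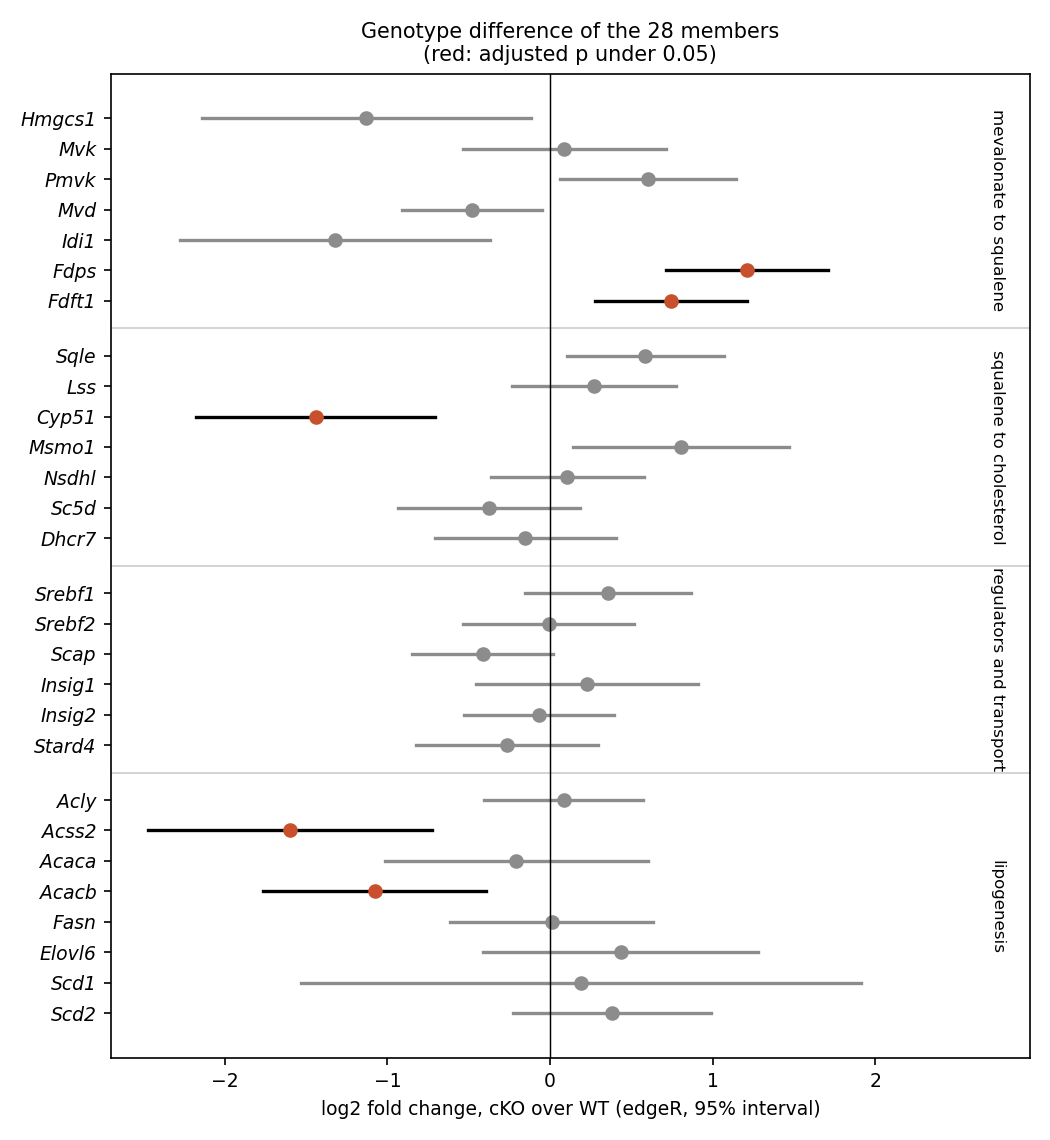
Log2 fold change of cKO over WT for each of the 28 members (point, horizontal axis) with its 95% interval (line) from edgeR, grouped by role; red points passed an adjusted p of 0.05. Fdps and Fdft1 lie to the right of zero and Cyp51, Acss2 and Acacb to the left, while the interval of Scd1 runs from -1.53 to 1.91.

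Of the 23 members not called, 15 had a 95% interval that stayed within a 2-fold change in either direction. The intervals of the other 8 (Hmgcs1, Pmvk, Idi1, Sqle, Msmo1, Acaca, Elovl6 and Scd1) reached beyond it. Of the 23, 6 had an unadjusted p under 0.05 (Hmgcs1, Pmvk, Mvd, Idi1, Sqle and Msmo1). The share of all tested genes under that unadjusted p was not taken, here or for the other such counts, so they have no background beside them.

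The promoters of 5 members are shown here because they belong to the 3 genes that fell and to Hmgcs1 and Idi1, the members with the lowest log2 fold changes among those not called. Each window runs from 250 bases before to 50 bases after the annotated start, 5′ to 3′ on the gene's strand, from RefSeq on GRCm38.p6. Capitals mark the NF-Y box CCAAT or its reverse complement ATTGG and, in Hmgcs1, a TCACNCCAC match, the core of a sterol regulatory element. The windows lie at chr5:4104648-4104947 on the minus strand (Cyp51), chr2:155517793-155518092 on the plus strand (Acss2), chr5:114165268-114165567 on the plus strand (Acacb), chr13:119690101-119690400 on the plus strand (Hmgcs1) and chr13:8885356-8885655 on the plus strand (Idi1).
Cyp51: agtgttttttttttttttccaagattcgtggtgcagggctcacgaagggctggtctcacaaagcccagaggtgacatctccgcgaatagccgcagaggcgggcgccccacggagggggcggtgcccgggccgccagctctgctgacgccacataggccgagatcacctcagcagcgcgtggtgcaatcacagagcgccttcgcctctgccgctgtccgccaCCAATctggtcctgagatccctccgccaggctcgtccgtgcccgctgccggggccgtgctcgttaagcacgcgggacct
Acss2: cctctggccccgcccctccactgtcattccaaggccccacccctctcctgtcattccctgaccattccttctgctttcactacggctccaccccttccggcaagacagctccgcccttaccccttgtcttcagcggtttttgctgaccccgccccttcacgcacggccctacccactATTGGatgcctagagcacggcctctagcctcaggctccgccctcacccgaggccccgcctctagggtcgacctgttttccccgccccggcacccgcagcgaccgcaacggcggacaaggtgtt
Acacb: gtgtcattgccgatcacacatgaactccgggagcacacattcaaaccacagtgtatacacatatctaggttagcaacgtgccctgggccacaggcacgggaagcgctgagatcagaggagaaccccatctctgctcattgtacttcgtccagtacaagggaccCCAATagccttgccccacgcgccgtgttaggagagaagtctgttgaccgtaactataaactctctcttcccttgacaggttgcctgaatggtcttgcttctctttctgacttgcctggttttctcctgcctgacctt
Hmgcs1: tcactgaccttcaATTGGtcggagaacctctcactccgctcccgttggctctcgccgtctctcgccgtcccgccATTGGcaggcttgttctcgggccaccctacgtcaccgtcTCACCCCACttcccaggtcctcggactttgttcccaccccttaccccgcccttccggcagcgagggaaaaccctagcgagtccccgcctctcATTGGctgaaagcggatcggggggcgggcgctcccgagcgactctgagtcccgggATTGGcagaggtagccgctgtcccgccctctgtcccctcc
Idi1: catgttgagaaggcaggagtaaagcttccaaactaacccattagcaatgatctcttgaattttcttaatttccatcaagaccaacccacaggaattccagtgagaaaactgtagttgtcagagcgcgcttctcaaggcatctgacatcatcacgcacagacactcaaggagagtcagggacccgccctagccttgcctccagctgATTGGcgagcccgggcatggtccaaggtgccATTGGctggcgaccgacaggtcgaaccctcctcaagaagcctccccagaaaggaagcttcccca

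The windows of Cyp51, Acss2 and Acacb each held 1 CCAAT box, that of Idi1 held 2, and that of Hmgcs1 held 4. Of the 28 members, 22 had a promoter in the RefSeq table, and Fdps, Fdft1, Sqle, Stard4, Scd1 and Scd2 did not. Where a gene had several windows, it was counted once if any window held the motif on either strand. CCAAT stood in 19 of the 22 (86.4%), all but Scap, Acaca and Elovl6, beside 41.1% of 27025 genes and 42.5% of the 10611 tested genes with a window. The Sp1 motif GGGCGG stood in 17 of the 22 (77.3%), beside 38.2% of all genes and 67.1% of the tested genes. TCACNCCAC stood in 1 member (4.55%), Hmgcs1, beside 1.44% of all genes. None of the 3 motifs contains another. With 150 bases before the start in place of 250, 18 members (81.8%) and 31.9% of all genes held CCAAT. The box thus stood in the windows of all 3 genes that fell and also of most members that were not called. The windows of Acacb and Acaca lie inside the annotated genes, which start upstream at 114146535 (chromosome 5) and 84129672 (chromosome 11). These windows belong to internal starts, and which start is used in the kidney was not tested.

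The early steps, from acetyl-CoA to squalene, are represented by 7 members, of which 2 rose and 0 fell. Their median log2 fold change was 0.09. The share called was 28.6%, beside 16.7% of all tested genes, and the role groups were not tested against each other. Fdps encodes farnesyl diphosphate synthase, at the branch point toward sterols, dolichol and protein prenylation (ENSMUSG00000059743, chromosome 3, 89093588 to 89101959, GRCm38/mm10). Its level was 30.1, 17.4, 17.1 and 21.5 CPM in WT 1 to WT 4 and 46.7, 43.5, 60.2 and 49.1 CPM in cKO 1 to cKO 4. Every cKO library stood above every WT library. Fdps had a log2 fold change of 1.21 (edgeR adjusted p = 0.00525, SE 0.23), and the call held when any 1 library was left out (adjusted p from 0.00159 to 0.0195). It was lost without WT 4 and cKO 4 together (1.18, adjusted p = 0.0635).

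Fdft1 encodes squalene synthase, the first enzyme committed to sterols (ENSMUSG00000021273, chromosome 14, 63145150 to 63179578). It measured 34.2, 26.3, 21.3 and 20.05 CPM in WT 1 to WT 4 and 43.8, 42.5, 47.4 and 36.7 CPM in cKO 1 to cKO 4. The groups did not overlap, with WT 1 nearest to the cKO libraries. Fdft1 had a log2 fold change of 0.74 (edgeR adjusted p = 0.0349, SE 0.21). It held in 1 of 8 leave-outs, the one without WT 1 (adjusted p = 0.0115), and without any of the other 7 libraries the adjusted p was between 0.0563 and 0.111.

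Upstream of these enzymes, 3 members had negative and 2 had positive log2 fold changes, and none of them passed the edgeR test. Hmgcs1, the cytosolic HMG-CoA synthase that opens the pathway, measured 73.4, 332, 405 and 170 CPM in WT 1 to WT 4 and 159, 133, 87.0 and 68.5 CPM in cKO 1 to cKO 4. WT 1 stood as low as the cKO libraries while the other 3 WT libraries stood above all of them. Hmgcs1 had a log2 fold change of -1.13 (edgeR adjusted p = 0.114, SE 0.46), which was -1.44 without WT 1 (adjusted p = 0.0172). Idi1, the isopentenyl diphosphate isomerase, showed the same arrangement, with 38.04, 136, 154 and 177 CPM in WT and 58.8, 58.0, 62.6 and 23.0 CPM in cKO. For Idi1 the log2 fold change was -1.32 (SE 0.44, edgeR adjusted p = 0.059), with -1.63 (adjusted p = 0.00524) without WT 1 and an adjusted p of 0.0184 by DESeq2.

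The kinases and decarboxylase that act between Hmgcs1 and Idi1 did not pass either. Mvk, mevalonate kinase, measured 16.3 ± 5.66 CPM in WT and 17.3 ± 4.78 CPM in cKO (SD, n = 4). Pmvk, phosphomevalonate kinase, measured 12.7 ± 3.74 CPM and 19.2 ± 3.59 CPM, a log2 fold change of 0.60 (edgeR adjusted p = 0.117) that passed without WT 1 (0.82, adjusted p = 0.0296). Mvd, which makes isopentenyl diphosphate, measured 49.99 ± 5.51 CPM and 35.8 ± 6.42 CPM, a log2 fold change of -0.48 (edgeR adjusted p = 0.113). Expected counts of Idi1 and Fdps departed from whole numbers by more than 1e-06 in 5 and 3 libraries, by up to 0.454 and 0.168. RSEM gives such counts where a read can belong to more than 1 gene, so these levels may include reads of others. The departures of Acss2 (4 libraries), Scap and Fasn (1 each) were at most 0.001.

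**Figure D2:**
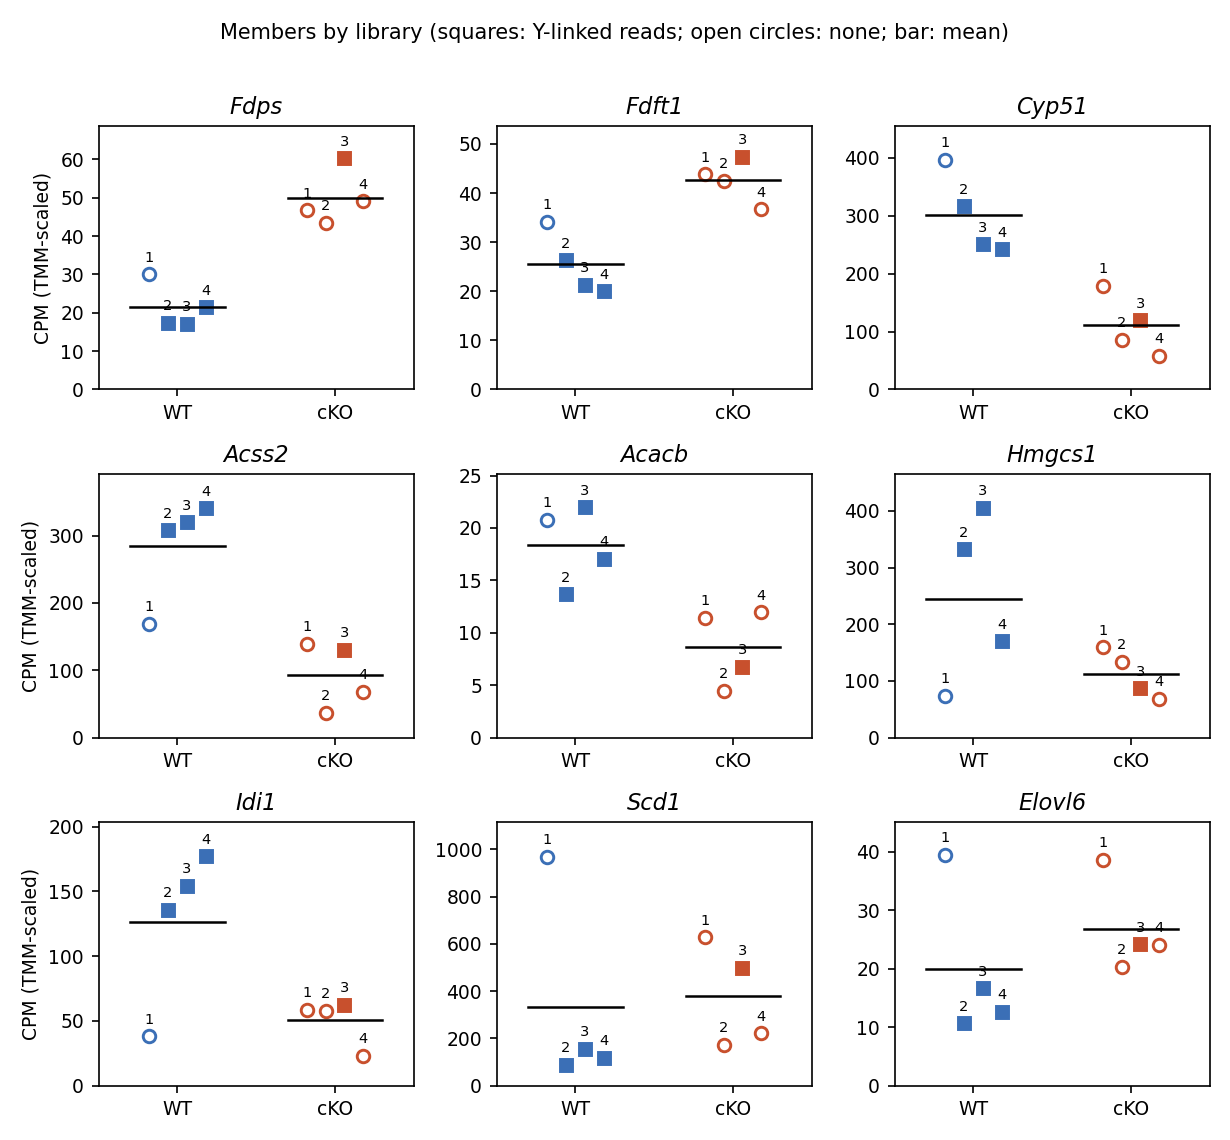
Level of 9 members in each library (vertical axis, CPM after TMM scaling), with WT in blue, cKO in red, squares for libraries with Y-linked reads, open circles for those without, the replicate number beside each point and a bar at the group mean. The groups do not overlap for Fdps, Fdft1, Cyp51, Acss2 and Acacb, and WT 1 stands apart from the other WT libraries for Hmgcs1, Idi1, Scd1 and Elovl6.

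The late steps, from squalene to cholesterol, are represented by 7 members, of which 0 rose and 1 fell, with a median log2 fold change of 0.11. The share called was 14.3%, beside 16.7% of all tested genes. Cyp51 encodes the cytochrome P450 that removes a methyl group from lanosterol (ENSMUSG00000001467, chromosome 5, 4081145 to 4104746). It measured 396, 316, 251 and 242 CPM in WT 1 to WT 4 and 179, 85.9, 120 and 58.2 CPM in cKO 1 to cKO 4. Every cKO library stood below every WT library. For Cyp51 the log2 fold change was -1.44 (SE 0.34, edgeR adjusted p = 0.0148), and it held in all 8 leave-outs (adjusted p from 0.00599 to 0.0455). The call was lost without the 2.5-month pair (-1.32, adjusted p = 0.0762) and without WT 4 and cKO 4 (-1.36, adjusted p = 0.0722). In whole kidney, a lower share of the cells that make a transcript and less of it per cell cannot be told apart.

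The other late-step members did not pass, with log2 fold changes from -0.38 to 0.81. The members do not cover every late step. Of 6 further sterol enzymes outside the member list, not all of them of late steps, 1 was called (16.7%, as over all tested genes). It was Lbr, which was lower (log2 fold change -1.21, edgeR adjusted p = 0.0329). The call of Lbr held in 2 of 8 leave-outs and was lost with a sex term. Of the 6, 2 had positive and 4 negative log2 fold changes, the highest that of Tm7sf2 (0.43, edgeR adjusted p = 0.314). Sqle, squalene epoxidase, measured 56.5, 41.3, 62.2 and 61.7 CPM in WT and 87.1, 82.5, 103 and 60.5 CPM in cKO. Only cKO 4 lay within the WT range, and the log2 fold change of Sqle was 0.58 (95% interval 0.10 to 1.07, edgeR adjusted p = 0.0906). Msmo1, which acts later in the pathway than Cyp51, measured 42.8, 36.7, 22.0 and 27.9 CPM in WT and 56.5, 81.7, 57.9 and 30.5 CPM in cKO. Its log2 fold change was 0.81 (edgeR adjusted p = 0.0897), and 1.02 (adjusted p = 0.0467) without cKO 4. Lss, which closes the sterol ring, had a log2 fold change of 0.27 (edgeR adjusted p = 0.438). Nsdhl, the sterol dehydrogenase that follows Msmo1, had 0.11, Sc5d, a sterol desaturase, had -0.38, and Dhcr7, the last reductase of one branch, had -0.15 (0.0088 with library size scaling), with adjusted p values of 0.757, 0.329 and 0.706.

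Scaled by exon length, so that genes can be set beside each other, the 14 sterol enzymes spanned a wide range. Cyp51 had the highest mean of the 14 in both genotypes, at 68.2 ± 16.2 CPM per kb of exon in WT and 25.1 ± 11.8 CPM per kb in cKO (SD, n = 4). Hmgcs1 stood at rank 2 in both, at 53.4 ± 32.9 and 24.4 ± 9.06 CPM per kb. The difference between Cyp51 and Hmgcs1 lay within their SD in both genotypes, as did that from Nsdhl (23.6 ± 6.19 CPM per kb) in cKO, so their order is not resolved. Idi1 went from rank 3 in WT (36.1 ± 17.5 CPM per kb) to rank 6 in cKO (14.4 ± 5.27), and Fdps from rank 12 (5.12 ± 1.44) to rank 7 (11.9 ± 1.73). Lss had the lowest length-scaled level in both, at 1.27 and 1.54 CPM per kb. The length is that of all annotated exons of a gene together, which can exceed the length of the transcript a kidney makes and so lower the scaled level.

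**Figure D3:**
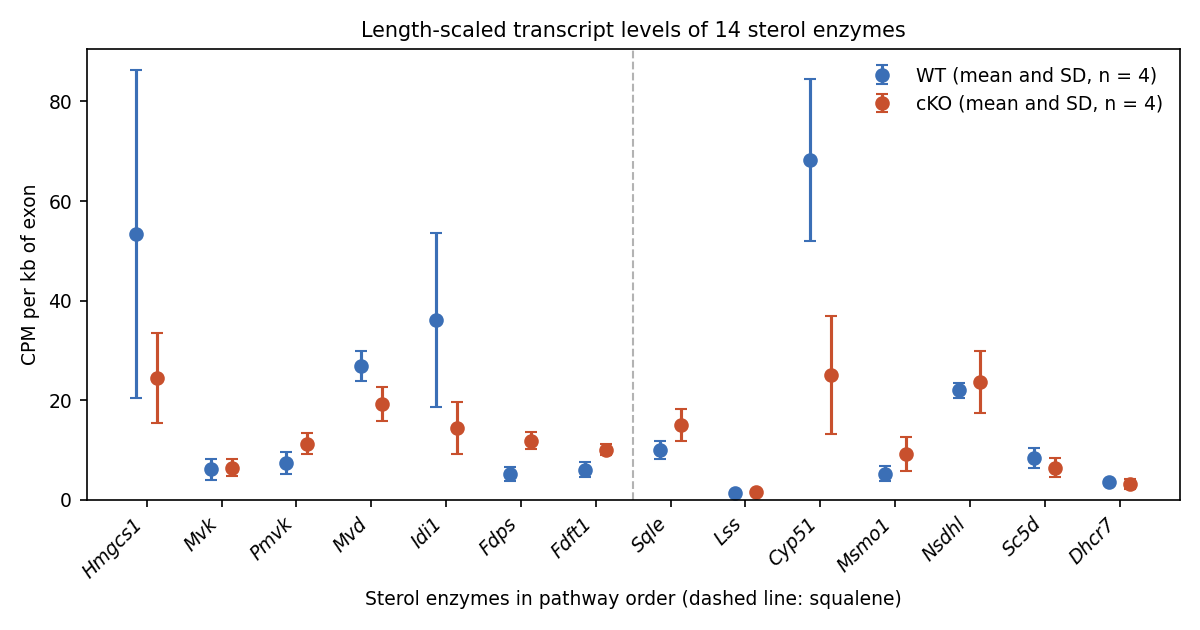
Length-scaled level (vertical axis, CPM per kb of exon; mean and SD, n = 4) of the 14 sterol enzymes in pathway order, WT in blue and cKO in red, with a dashed line at squalene. Cyp51, Hmgcs1 and Idi1 have the highest WT levels, and in cKO the levels of the 14 lie closer together, up to 25.1 CPM per kb.

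None of the 6 regulators and transport genes passed (0 of 6 by edgeR, 0 at an unadjusted p under 0.05, 0 by DESeq2 and 0 by limma-voom), and their median log2 fold change was -0.04. Over all tested genes 16.7% were called by edgeR, 19.2% by DESeq2 and 16.5% by limma-voom. Srebf2, which encodes the factor that drives sterol genes, measured 59.6, 42.4, 53.6 and 63.2 CPM in WT and 60.4, 34.2, 69.99 and 52.9 CPM in cKO. The cKO range took in the whole WT range, with replicate 2 the lowest in each group, and the log2 fold change of Srebf2 was -0.01 (95% interval -0.54 to 0.52), or 0.16 with library size scaling. Srebf1, which encodes the factor tied more to fatty acid genes, measured 29.1, 22.0, 31.5 and 30.5 CPM in WT and 47.1, 26.3, 42.3 and 29.2 CPM in cKO. Of the cKO libraries, cKO 1 and cKO 3 stood above all WT libraries, and the log2 fold change of Srebf1 was 0.36 (95% interval -0.15 to 0.86). These are transcript levels, and the cleavage that activates the factors was not measured.

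Scap, the sterol-sensing escort, measured 59.9, 56.6, 68.7 and 75.7 CPM in WT and 51.0, 37.2, 55.9 and 51.7 CPM in cKO. Its groups did not overlap, and its log2 fold change was -0.41 (95% interval -0.85 to 0.02, edgeR adjusted p = 0.17). Insig1, a retention protein that is itself an SREBP target, measured 43.6, 50.7, 24.4 and 31.4 CPM in WT and 60.5, 45.6, 47.1 and 22.5 CPM in cKO, with overlapping groups and a log2 fold change of 0.23 (95% interval -0.46 to 0.91). Insig2, its paralog, had a log2 fold change of -0.07 (0.09 with library size scaling), and Stard4, a cytosolic sterol carrier, had -0.26, with edgeR adjusted p values of 0.844 and 0.5.

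Lipogenesis is represented by 8 members, of which 0 rose and 2 fell, with a median log2 fold change of 0.05. Of these, Acss2 makes acetyl-CoA and Acacb uses it. The share of the 8 called was 25%, beside 16.7% of all tested genes. Acss2 encodes the cytosolic and nuclear acetyl-CoA synthetase (ENSMUSG00000027605, chromosome 2, 155517948 to 155585724). It measured 169, 308, 319 and 340 CPM in WT 1 to WT 4 and 140, 36.6, 130 and 68.1 CPM in cKO 1 to cKO 4. The groups did not overlap, with WT 1 nearest to the cKO libraries. Acss2 had a log2 fold change of -1.60 (edgeR adjusted p = 0.0199, SE 0.40), and the call was lost without WT 4 (adjusted p = 0.0513) and without cKO 4 (0.0764).

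Acacb encodes the acetyl-CoA carboxylase of the outer mitochondrial membrane, whose product malonyl-CoA restrains fatty acid import into mitochondria (ENSMUSG00000042010, chromosome 5, 114146535 to 114250761). It measured 20.8, 13.7, 22.0 and 17.1 CPM in WT 1 to WT 4 and 11.4, 4.46, 6.76 and 11.9 CPM in cKO 1 to cKO 4. The groups did not overlap, with WT 2 and cKO 4 nearest to each other. For Acacb the log2 fold change was -1.08 (SE 0.31, edgeR adjusted p = 0.0367). The call held in 3 of 8 leave-outs and was lost without WT 1, WT 3, WT 4, cKO 2 or cKO 3 (adjusted p from 0.0524 to 0.094), and with library size scaling (-0.91, adjusted p = 0.0891). Acaca, the cytosolic carboxylase that feeds fatty acid synthesis, had a log2 fold change of -0.21 (95% interval -1.01 to 0.60).

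The enzymes that build the fatty acid chain did not pass. Fasn, fatty acid synthase, measured 27.0, 41.1, 65.0 and 56.3 CPM in WT and 59.0, 32.4, 46.3 and 53.1 CPM in cKO, with all cKO libraries inside the WT range and a log2 fold change of 0.01 (95% interval -0.61 to 0.64). Acly, which makes acetyl-CoA from citrate, had a log2 fold change of 0.08 (edgeR adjusted p = 0.818) at 132 ± 27.6 CPM in WT and 140 ± 25.7 CPM in cKO. Elovl6, an elongase that acts on palmitate, measured 39.5, 10.7, 16.7 and 12.7 CPM in WT and 38.6, 20.3, 24.2 and 24.2 CPM in cKO. WT 1 was the highest of all 8 libraries for Elovl6, and the log2 fold change was 0.43 (edgeR adjusted p = 0.462) with it and 1.00 (adjusted p = 0.0272) without it.

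Scd1 encodes a stearoyl-CoA desaturase, which makes oleate and palmitoleate, and showed the widest spread of the members. It measured 968, 89.2, 156 and 119 CPM in WT 1 to WT 4 and 628, 172, 498 and 222 CPM in cKO 1 to cKO 4. WT 1 stood above every other library, and the other 3 WT libraries stood below every cKO library. For Scd1 the log2 fold change was 0.19 (SE 0.77, edgeR adjusted p = 0.883), and without WT 1 it was 1.64 (adjusted p = 0.0261). Scd2, its neighbour on chromosome 19 at a distance of 87.6 kb, measured 113, 45.1, 105 and 71.5 CPM in WT and 127, 90.2, 103 and 116 CPM in cKO (log2 fold change 0.38, edgeR adjusted p = 0.359). The expected counts of both genes departed from whole numbers in all 8 libraries, by up to 0.472 and 0.466, and which genes shared those reads was not tested. Summed adipocyte marker levels were 88.5, 181, 100.1 and 37.8 CPM in WT 1 to WT 4 and 446, 527, 95.2 and 158 CPM in cKO 1 to cKO 4, and their part in the Scd1 levels was not tested.

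Within a library, the ratio of paralogs does not depend on how libraries are scaled. The log2 ratio of Acaca to Acacb was -0.08 ± 0.49 in WT and 0.83 ± 0.52 in cKO (SD, n = 4), a difference of 0.90 (exact two-sided permutation p = 0.0571, 0.114 adjusted over the 4 pairs). The log2 ratio of Srebf1 to Srebf2 was -0.95 ± 0.13 in WT and -0.58 ± 0.25 in cKO, a difference of 0.37 (exact permutation p = 0.0571, adjusted 0.114). Differences for Insig1 over Insig2 (0.29, exact permutation p = 0.429) and Scd1 over Scd2 (0.26, exact permutation p = 0.8) were within the spread of the libraries. The groups overlapped for all 4 ratios, and with 4 against 4 libraries the smallest p the test can give is 0.0286.

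Since the sexes were unevenly spread over the genotypes, the genotype difference was also taken among mice lacking Y-linked reads (3 cKO against WT 1) and among those with them (cKO 3 against 3 WT). With a sex term in the fit, 2 members kept their call, Fdps (1.16, edgeR adjusted p = 0.019) and Cyp51 (-1.52, adjusted p = 0.0306), beside 6.8% of all tested genes called in that fit. Fdft1 (0.67, adjusted p = 0.135), Acss2 (-1.18, adjusted p = 0.118) and Acacb (-1.26, adjusted p = 0.0629) kept their direction and not their call. The 5 members kept their direction within each sex: Cyp51 was -1.88 without and -1.17 with Y-linked reads, Acss2 -1.05 and -1.31, and Acacb -1.15 and -1.38. Fdps was 0.63 and 1.69, and Fdft1 was 0.26 and 1.07. Of these 10 values only that of Fdps with Y-linked reads passed (edgeR adjusted p = 0.0149), where 3.47% of all tested genes passed with Y-linked reads and 0.868% without, each resting on a single library in 1 genotype.

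Some members had values of opposite sign in the sexes, and the contrast without Y-linked reads rests on WT 1, whose Scd1, Hmgcs1 and Idi1 levels stood apart. Scd1 was -1.51 without and 2.04 with Y-linked reads, a difference of 3.54 (SE 0.87, unadjusted p = 0.0019, edgeR adjusted p = 0.464). Hmgcs1 was 0.71 and -1.80, a difference of -2.51 (SE 0.85, unadjusted p = 0.0136), and Idi1 was 0.29 and -1.32. In all, 11 members differed in sign between the sexes, and the share of all tested genes that did so was not taken. The difference itself passed for 0 of 28 members by edgeR (4 at an unadjusted p under 0.05), beside 0.0651% of all tested genes, and was not run with another tool. The term for sex beside genotype also passed for 0 of 28 (3 at an unadjusted p under 0.05), beside 0.116%. WT 1 was the sole WT library without Y-linked reads, so its sex and the library itself cannot be told apart.

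**Figure D4:**
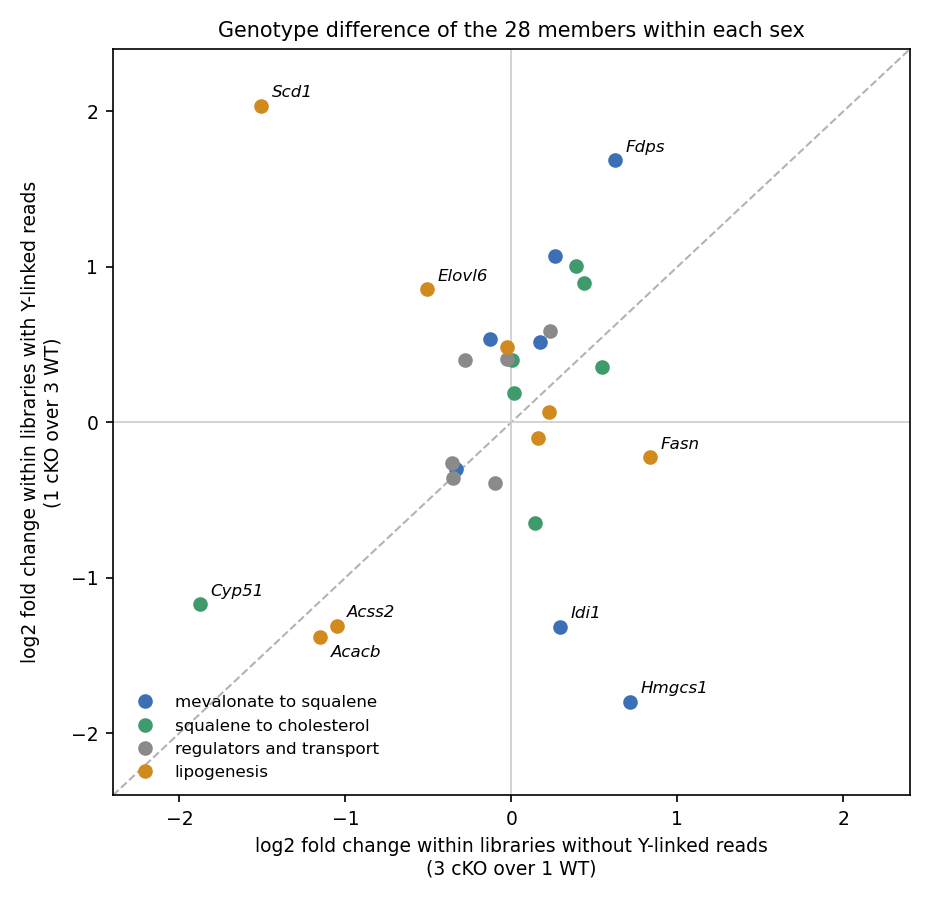
Log2 fold change of cKO over WT for each of the 28 members within the libraries without Y-linked reads (horizontal axis, 3 cKO against 1 WT) and with them (vertical axis, 1 cKO against 3 WT), coloured by role, with a dashed line of equal values. Cyp51, Acss2 and Acacb are negative on both axes and Fdps positive on both, while Scd1 (-1.51 and 2.04), Hmgcs1 (0.71 and -1.80) and Idi1 (0.29 and -1.32) have opposite signs.

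Cell type markers moved with genotype beside these results, where 9.57% of all tested genes rose and 7.14% fell. The summed level of 10 proximal tubule markers was 9993 to 15268 CPM in WT and 3320 to 8957 CPM in cKO, without overlap, and 3 of 10 fell (Slc34a1, Lrp2 and Slc5a12). The part of this difference in the falls of Cyp51, Acss2 and Acacb was not tested. Of 10 macrophage markers 8 rose (119 to 238 CPM in WT and 461 to 823 CPM in cKO, summed). Ptprc did not pass, and Csf1r went the other way without passing, from 53.7 to 34.5 CPM (log2 fold change -0.64, edgeR adjusted p = 0.156). Of the fibroblast markers 7 of 7 rose (107 to 179 and 436 to 694 CPM). Of 6 urothelium markers 5 rose (12.2 to 59.0 and 87.5 to 158 CPM), and of 10 cell cycle genes 8 rose (60.1 to 92.6 and 156 to 187 CPM). Of the red blood cell genes 4 of 4 tested fell (29.4 to 584 and 3.13 to 28.2 CPM). The part of these lists in the rises of Fdps and Fdft1, or in the falls, was not tested. Of the 8 adipocyte markers 7 were tested and 1 rose (Retn), with summed levels of 37.8 to 181 CPM in WT and 95.2 to 527 CPM in cKO. Adipoq, a defining adipocyte gene, was 0 to 9.64 CPM in WT and 6.12 to 38.1 CPM in cKO. The 7 adrenal cortex markers, genes of a gland that also handles much cholesterol, summed to 0.572 to 2.50 CPM over the 8 libraries, and 3 of them had 0 counts in all.

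Of other genes of sterol synthesis and its control, few passed. Over all tested genes 16.7% were called, 9.57% higher and 7.14% lower. In the lists that follow, chosen with earlier results known, the shares called were 16.7%, 8.33%, 25%, 45.5%, 12.5% and 42.1%, in the order given. Among 6 further sterol enzymes 0 rose and 1 fell, with a median log2 fold change of -0.20. Lbr, a nuclear membrane protein with sterol reductase activity, went from 24.6 ± 8.98 to 10.6 ± 3.39 CPM (log2 fold change -1.21, edgeR adjusted p = 0.0329). That call was lost with a sex term (-0.76, adjusted p = 0.313) and in 6 of 8 leave-outs (without WT 2, WT 3, WT 4, cKO 2, cKO 3 or cKO 4, adjusted p from 0.0593 to 0.09). Among 12 genes of SREBP processing and its partners 0 rose and 1 fell, with a median of -0.28. It was Prkaa2, a catalytic subunit of the energy sensor AMPK, at 135 ± 50.8 and 72.4 ± 14.7 CPM (log2 fold change -0.90, edgeR adjusted p = 0.0488), and its call was lost without any library but WT 1 or cKO 1 (adjusted p from 0.0509 to 0.133) with a sex term (0.33) and by limma-voom (0.065).

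Among 16 tested genes of cholesterol sensing, uptake, efflux and storage 3 rose and 1 fell, with a median of 0.12. Ch25h, which makes 25-hydroxycholesterol, a sterol that holds SREBP in the endoplasmic reticulum, rose from 0.924 ± 0.337 to 4.03 ± 0.87 CPM (SD, n = 4; log2 fold change 2.14, edgeR adjusted p = 0.00318). Lrp1, a lipoprotein receptor, rose from 21.6 ± 6.38 to 48.8 ± 11.3 CPM (1.18, edgeR adjusted p = 0.0108), and its call was lost without the 2.5-month pair (adjusted p = 0.0556) and without WT 4 and cKO 4 (0.112). Both calls held in all 8 leave-outs and with a sex term. Scarb1, the receptor for high-density lipoprotein, rose from 13.9 ± 2.16 to 24.5 ± 2.65 CPM (0.82, edgeR adjusted p = 0.0182), with the call lost without WT 4 (0.0648), cKO 3 (0.0532) or cKO 4 (0.0553) and with a sex term (0.0616).

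Cyp7b1, an oxysterol hydroxylase, was called lower (log2 fold change -4.54, edgeR adjusted p = 0.0289). It measured 4.23, 400, 415 and 281 CPM in WT 1 to WT 4 and 8.12, 14.1, 17.0 and 8.22 CPM in cKO 1 to cKO 4. WT 1, the WT library without Y-linked reads, was the lowest of all 8. With a sex term the value was -1.70 (adjusted p = 0.642), and among mice lacking Y-linked reads it was 1.25, of the other sign. The call was also lost without any library but WT 1 (adjusted p from 0.0533 to 0.0852), and without WT 1 the adjusted p was 4.33e-05.

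Genes that supply or steer lipogenesis moved in both directions. Among 11 genes of carbohydrate response and lipogenic cofactors 3 rose and 2 fell, with a median of 0.52. Pgd and G6pdx, the NADPH-producing dehydrogenases of the pentose phosphate pathway, rose from 75.1 ± 12.1 to 184 ± 13.5 CPM (log2 fold change 1.29, edgeR adjusted p = 0.00163) and from 30.4 ± 4.33 to 55.2 ± 8.09 CPM (0.86, adjusted p = 0.0129). Mid1ip1, which promotes the polymerisation of acetyl-CoA carboxylase, rose from 17.0 ± 1.92 to 32.3 ± 4.27 CPM (0.93, edgeR adjusted p = 0.00789). All 3 held in every leave-out and with a sex term, and without WT 4 and cKO 4 together G6pdx (0.122) and Mid1ip1 (0.111) lost their calls. Me1, the cytosolic malic enzyme and another source of NADPH, measured 323, 691, 871 and 768 CPM in WT and 327, 231, 348 and 176 CPM in cKO (-1.29, edgeR adjusted p = 0.0262). WT 1 lay among the cKO libraries, and the call of Me1 was lost with a sex term (-0.78, adjusted p = 0.232) and without WT 2, WT 3, WT 4, cKO 2 or cKO 4 (adjusted p from 0.0502 to 0.09). The other gene that fell, named after its values were seen, was Mlxipl, the carbohydrate response factor ChREBP (-1.55, edgeR adjusted p = 0.0414). It measured 11.6, 28.6, 67.9 and 77.8 CPM in WT and 17.1, 13.3, 15.5 and 17.6 CPM in cKO, and WT 1 was the lowest of all 8. The call of Mlxipl was lost with a sex term (-0.74, adjusted p = 0.544) and without WT 3, WT 4 or any 1 cKO library (adjusted p from 0.0715 to 0.131), and its value was 0.46 among mice lacking Y-linked reads.

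Among 8 tested further desaturases and elongases 0 rose and 1 fell, with a median of 0.16. Fads6, a desaturase family member, went from 21.3 ± 3.77 to 5.68 ± 2.54 CPM (log2 fold change -1.89, edgeR adjusted p = 0.00341), without overlap of the groups, in all 8 leave-outs and with a sex term. Among 19 genes of triglyceride synthesis and lipid droplets 6 rose and 2 fell, with a median of 0.35. Plin2, a lipid droplet coat protein, measured 80.9, 113, 80.7 and 93.3 CPM in WT and 140, 213, 201 and 545 CPM in cKO (1.58, edgeR adjusted p = 0.0172). The groups did not overlap and cKO 4 stood far above the rest, without which the log2 fold change of Plin2 was 1.01. Plin3, another coat protein, rose from 43.0 ± 10.9 to 75.7 ± 2.81 CPM (0.82, edgeR adjusted p = 0.0208), and Hilpda, an inhibitor of triglyceride lipase, from 2.05 ± 1.05 to 7.20 ± 3.70 CPM (1.80, adjusted p = 0.0171).

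Gpam, the mitochondrial acyltransferase that starts triglyceride synthesis, fell from 50.2 ± 18.2 to 18.1 ± 7.10 CPM (log2 fold change -1.47, edgeR adjusted p = 0.0155). The groups overlapped for Gpam, with WT 1 (23.4 CPM) below cKO 1 (27.5 CPM). Lpin1, a phosphatidate phosphatase named after its values were seen, was called lower as well (-1.35, edgeR adjusted p = 0.0223). Its level was 30.7, 46.4, 78.3 and 87.7 CPM in WT and 31.0, 16.1, 30.1 and 18.3 CPM in cKO, with WT 1 inside the cKO range. The call of Lpin1 was lost with a sex term (-0.86, adjusted p = 0.196) and without WT 3, WT 4, cKO 2 or cKO 4 (adjusted p from 0.057 to 0.0805). Gpat3, another acyltransferase of the step named for Gpam, rose from 10.5 ± 5.45 to 25.3 ± 4.38 CPM (1.27, edgeR adjusted p = 0.0215). Its groups did not overlap. Plin4 (1.79, edgeR adjusted p = 0.041) and Plin5 (0.79, adjusted p = 0.0439) rose as well. Gpat3, Plin4 and Plin5 were named after their values were seen, and their leave-outs were not taken. The calls of Plin2, Plin3, Hilpda and Gpam were lost with a sex term (adjusted p from 0.0619 to 0.175). Leaving out cKO 4 ended those of Gpam (0.0609), Hilpda (0.0502) and Plin3 (0.0539), WT 3 and WT 4 ended those of Hilpda (0.0506 and 0.0551) and Plin3 (0.0616 and 0.0732), and WT 2 (0.0511) and cKO 3 (0.0516) ended that of Plin3.

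**Figure D5:**
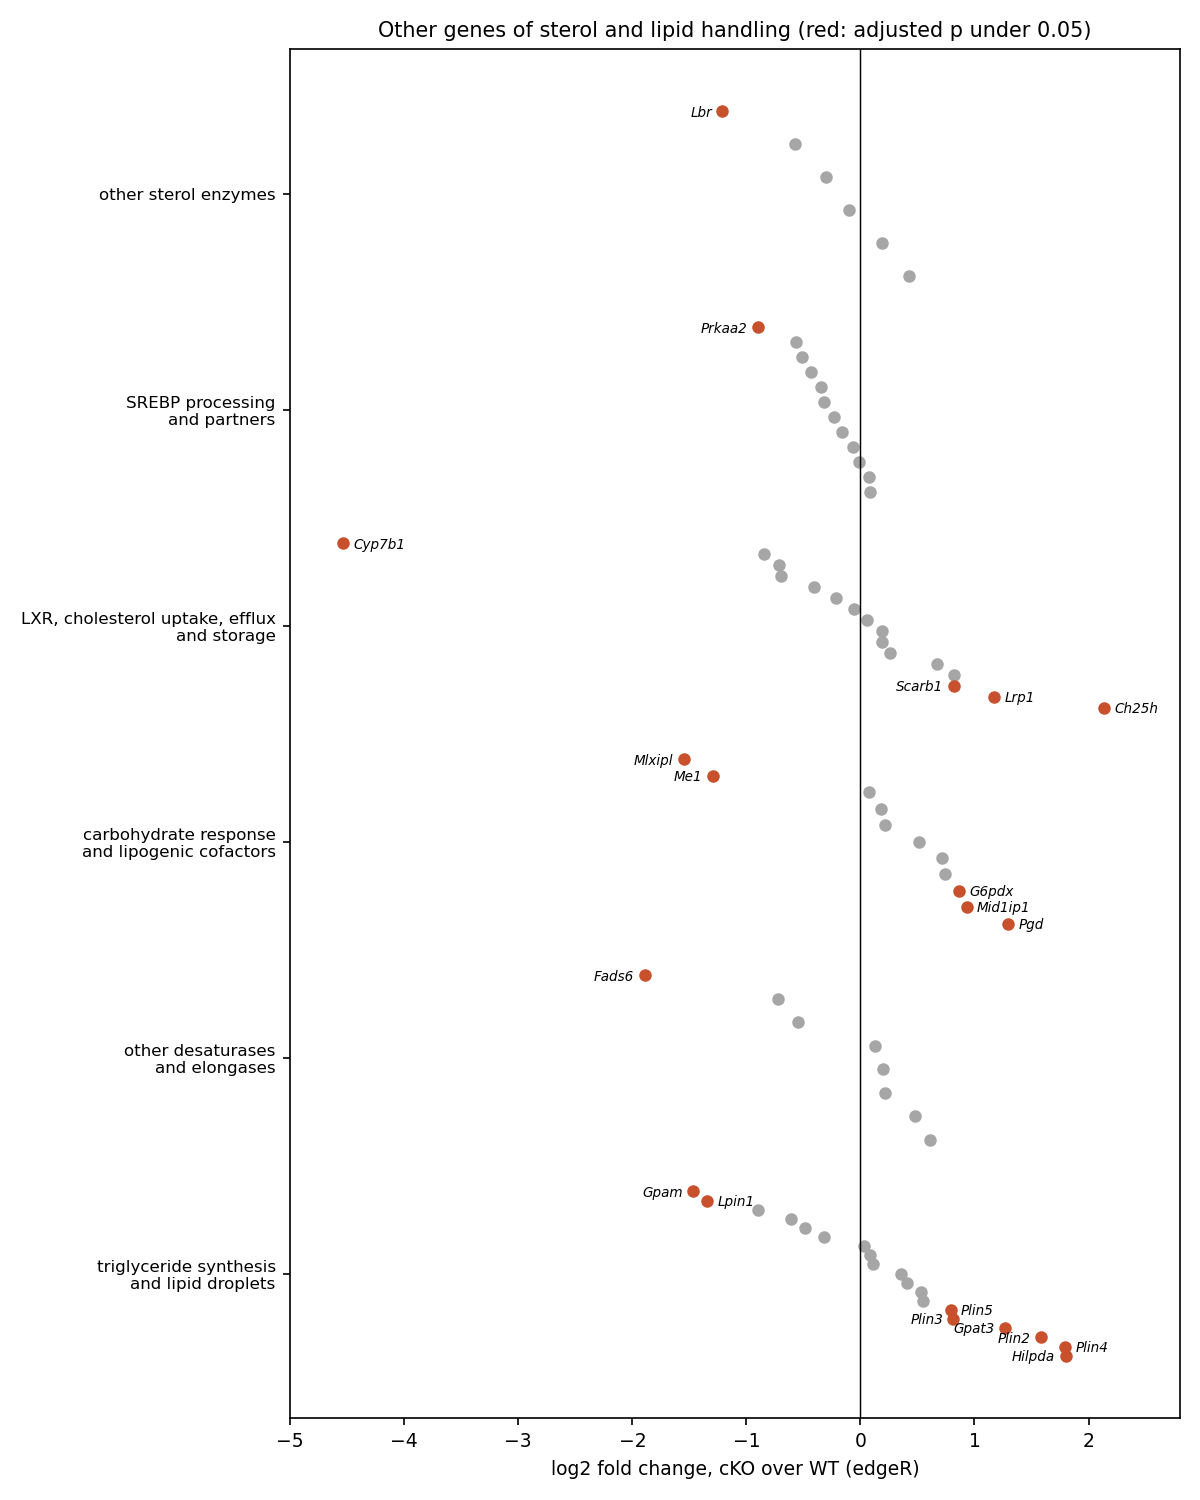
Log2 fold change of cKO over WT (horizontal axis, edgeR) for each tested gene of 6 lists of sterol and lipid handling, with genes that passed an adjusted p of 0.05 in red and named. The lists of cofactors and of triglyceride and lipid droplet genes hold the most red points, 5 and 8, and Cyp7b1 (-4.54) lies farthest from zero.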

How the data were processed

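RNA sequencing counts of 8 whole kidneys were analysed. The deposited values are expected counts that the authors estimated per gene with STAR and RSEM on mm10, per the submitters' processing notes, without scaling. Of the tool versions, annotation release and strand setting, none is recorded in the labels, so overlapping and antisense genes may share reads. Expected counts were rounded, genes were kept by filterByExpr, and TMM factors scaled the libraries. Levels are CPM of the TMM-scaled library size, and SD is over the 4 libraries of a group. Genotypes were compared over all genes with the two-sided edgeR quasi-likelihood test (robust) and Benjamini-Hochberg adjustment at 0.05. Intervals are at 95%. Library totals of 9454830 to 15838026 set the counting error. No pair of libraries within a genotype agreed within sampling noise (chi-square per gene 16.0 or more).

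The members and lists were chosen with earlier results of these data known. Values per library are given for members that passed and for Srebf1, Srebf2, Insig1, Hmgcs1, Sqle, Fasn and Scd1, and for others where a library decides a value. Of each list the up to 4 called genes with the smallest adjusted p are named. Libraries with at least 10 Y-linked counts were taken as male. Paralog ratios used a prior count of 0.5. Symbols, positions and exon lengths came from the GENCODE annotation of the same build, which named 47224 of the 47643 identifiers. The listed sterol gene Faxdc2 was not analysed here. Alternatives were other scalings, filters, tools, covariates, thresholds and left-out libraries. The test of the difference between sexes was added after seeing the data. The fits ran in R 4.3.3 with DESeq2 1.42.0, edgeR 4.0.16 and limma 3.58.1, the rest in Python 3.11.15 with numpy 2.4.6, matplotlib 3.10.9 and pandas 2.3.3. The fit was tested on simulated counts.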

Additional observations from a re-analysis of the deposited data

Results flagged for a closer look

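In 4 of 86 groups of 4 libraries checked, 1 library lay far from the other 3. Chance alone gives this in about 1 in 20 groups. Idi1 in cKO 4 was 23.0 CPM, where the other cKO libraries lay between 58.0 and 62.6 CPM. Scd1 in WT 1 was 968 CPM, where the next WT library was at 156 CPM and the lowest at 89.2 CPM. Plin3 in WT 1 was 59.3 CPM, with the others between 37.1 and 37.9 CPM, and Hilpda in WT 1 was 3.62 CPM, with the others between 1.42 and 1.61 CPM. WT 1 is the WT library without Y-linked reads and accounts for 3 of the 4.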

How the results depend on the processing

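Against 2 members called higher and 3 lower, library size scaling gave 4 higher, the sex term 1 and 1, the libraries without Y-linked reads 0 and 0 (3 members at an unadjusted p under 0.05) and those with them 1 and 0. Leaving out the 2.5-month pair gave 1 and 0, and leaving out WT 4 and cKO 4 gave 0 and 0 (7 at an unadjusted p under 0.05). A threshold of 0.01 gave 1 and 0, and one of 0.1 gave 4 higher. Leaving out 1 library gave 1 to 5 higher and 1 to 4 lower. The share of all tested genes called, 16.7% in the main fit, moved as well. It was 17.5% with library size scaling, 6.8% with the sex term, 5.77% at 0.01 and 25.5% at 0.1. Without the 2.5-month pair it was 10%, without WT 4 and cKO 4 4.1%, and without 1 library 8.25% to 22%. The cause of these shifts was not tested. The median of the early sterol steps was 0.52 in libraries with Y-linked reads and 0.41 without the 2.5-month pair. Library size scaling moved the median of all genes by 0.16 and the share of calls that were higher from 57.3% to 77.2%. The sex term made 76% of calls higher, on 941 genes against 2310, leaving out WT 4 and cKO 4 left 568, and leaving out 1 library gave 1155 to 3093.

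The replicate numbers were not taken as pairs, with same-number correlations of -0.1, 0.32, 0.12 and 0.01 against -0.3 to 0.23 for others, and replicate 2 alone matched best with its own number in both groups. The replicate block kept all 5 member calls and gave 2208 genes. Under it Prkaa2 (-0.84, adjusted p = 0.0814), Mlxipl (-1.25, adjusted p = 0.101) and Cyp7b1 (-3.89, adjusted p = 0.138) were not called.

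The sign turned for none of the 5 called members under the alternatives run, and for 15 uncalled members. Within libraries without Y-linked reads the log2 fold changes were Hmgcs1 0.71, Mvk -0.13, Idi1 0.29, Sc5d 0.14, Dhcr7 0.0135, Insig1 -0.0235, Acaca 0.16, Elovl6 -0.51, Scd1 -1.51, Scd2 -0.0291, Mlxipl 0.46 and Cyp7b1 1.25. Within those with Y-linked reads they were Dhcr7 0.19, Srebf2 0.40 and Fasn -0.23. The sex term gave Dhcr7 0.10, Srebf2 0.0614 and Acaca 0.027, and the age term Fasn -0.0125. Library size scaling gave Dhcr7 0.0088, Srebf2 0.16 and Insig2 0.0876, and upper quartile scaling Srebf2 0.0533. Without the 2.5-month pair Srebf2 was 0.0523 and Acly -0.14, and without WT 4 and cKO 4 Srebf2 was 0.0491. Leaving out 1 library gave ranges of -0.10 to 0.32 for Mvk, -0.0072 to 0.23 for Nsdhl, -0.15 to 0.16 for Srebf2, -0.23 to 0.0368 for Insig2, -0.0349 to 0.19 for Acly, -0.46 to 0.0378 for Acaca, -0.19 to 0.20 for Fasn and -0.16 to 1.64 for Scd1. With 4 libraries a group the intervals of 8 uncalled members reached beyond 2-fold, so changes of that size in them were not excluded.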
